A study of Mus musculus with 16 samples.

Results

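The CD28 family and checkpoint receptors described here are a set of 9 genes: Cd28, Icos, Ctla4, Pdcd1, Btla, Tigit, Lag3, Havcr2 and the ligand gene Cd274. They are 9 of the 52997 gene rows of the count table, taken by name with no threshold on their values. The set was chosen with earlier results of these data known, and all 9 passed the low-count filter in regulatory T cells. These cells (Tregs) express Foxp3 and hold immune responses in check. RNA was measured in 10 Treg libraries of 5 groups with 2 libraries each, from B6 mice of 6 to 8 weeks that carried a Foxp3 GFP reporter. Tg mice (strain label mTreg24 TCR-tg+) carried a transgenic T cell receptor cloned from a single muscle Treg, and WT mice (mTreg24 TCR-tg-) were without it, so the Tg line stands for 1 receptor. Muscle was injured with cardiotoxin (Ctx), a venom toxin that kills muscle fibres. Muscle Tregs and spleen Tregs of both genotypes were sorted on day 3 after injury, and a further group came from the spleen of uninjured Tg mice. Labels do not give the injury state of the WT spleen libraries, which comes from the design text. Tg cells were sorted as Vβ8+ Tregs and WT cells as total Tregs, so genotype and sort gate cannot be told apart. Whole muscle of injured Tg and WT mice, collected on day 8, gave 3 further libraries per genotype. The labels do not say whether libraries came from separate animals, and p-values then measure only the spread between libraries, which may be technical.

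CD28 binds CD80 and CD86 on antigen-presenting cells and supplies the costimulatory signal that accompanies T cell receptor engagement. ICOS, a relative of CD28 with its own ligand, is also costimulatory, whereas CTLA4 binds the ligands of CD28 with higher affinity and, on Tregs, strips them from antigen-presenting cells. PD-1 (Pdcd1), BTLA, TIGIT, LAG3 and TIM-3 (Havcr2) are inhibitory receptors, and PD-L1 (Cd274) is the ligand of PD-1. Tregs of non-lymphoid tissues are known for high levels of several of these molecules.

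Cd28, Ctla4 and Icos lie in this order on the plus strand of 1 stretch of chromosome 1 (GRCm38, the mm10 assembly, with GENCODE M21 gene spans): Cd28 at chr1:60716800-60773359, Ctla4 at chr1:60887000-60915832 and Icos at chr1:60977927-61000320. The gap from Cd28 to Ctla4 is 114 kb and that from Ctla4 to Icos 62.1 kb. Pdcd1 lies on the minus strand of the same chromosome at chr1:94038305-94052553. Tigit (chr16:43648867-43664146, minus strand) and Btla (chr16:45224315-45257670, plus strand) share chromosome 16. Cd274 is at chr19:29367455-29388095, Lag3 at chr6:124904361-124911705 on the minus strand and Havcr2 at chr11:46454935-46481255. An annotated antisense gene shares 511 of the 3622 exon bases of Cd274, and its reads cannot be told apart from those of Cd274 in libraries that do not mark strand.

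Promoter windows, from 250 bases before to 50 bases after the start site, were available for 6 of the 9 genes from RefSeq (GRCm38.p6). Windows of 4 genes are shown because their RNA moved in the same direction in both tissue comparisons described next, upwards for Ctla4, Havcr2 and Cd274 and downwards for Btla. Capitals mark matches, on either strand, to the core word GGAAA of NFAT sites or to the AP-1 word TGANTCA. The windows are Ctla4 at chr1:60908775-60909074, which lies inside the wider GENCODE span, Havcr2 at chr11:46454681-46454980, Cd274 at chr19:29367188-29367487 and Btla at chr16:45224087-45224386, all on the plus strand.
Ctla4: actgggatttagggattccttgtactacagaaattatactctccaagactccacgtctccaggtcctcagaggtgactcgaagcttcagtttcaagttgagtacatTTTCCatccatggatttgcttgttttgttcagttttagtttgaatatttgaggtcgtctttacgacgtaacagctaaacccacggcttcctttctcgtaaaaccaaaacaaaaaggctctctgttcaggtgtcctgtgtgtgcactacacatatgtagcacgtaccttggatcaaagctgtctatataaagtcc
Havcr2: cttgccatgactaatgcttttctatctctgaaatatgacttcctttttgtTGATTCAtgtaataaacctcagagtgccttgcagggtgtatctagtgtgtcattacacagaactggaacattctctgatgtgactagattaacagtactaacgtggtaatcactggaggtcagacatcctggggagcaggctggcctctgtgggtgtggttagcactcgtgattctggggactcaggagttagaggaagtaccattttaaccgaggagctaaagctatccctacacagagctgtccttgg
Cd274: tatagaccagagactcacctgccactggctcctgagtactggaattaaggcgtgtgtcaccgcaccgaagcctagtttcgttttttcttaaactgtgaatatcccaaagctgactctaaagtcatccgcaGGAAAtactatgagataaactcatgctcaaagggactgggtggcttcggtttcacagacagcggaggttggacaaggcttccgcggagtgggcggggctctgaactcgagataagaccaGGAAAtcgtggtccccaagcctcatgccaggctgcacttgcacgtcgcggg
Btla: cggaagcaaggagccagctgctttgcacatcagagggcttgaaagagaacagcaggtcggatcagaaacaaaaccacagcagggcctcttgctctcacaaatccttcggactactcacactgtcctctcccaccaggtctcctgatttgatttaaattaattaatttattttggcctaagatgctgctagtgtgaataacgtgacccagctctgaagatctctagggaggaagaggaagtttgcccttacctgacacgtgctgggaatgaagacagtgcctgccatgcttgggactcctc
The Ctla4 window held 1 GGAAA word on the minus strand, 144 bases before the start site. Havcr2 held 1 TGANTCA word 200 bases before it, and Cd274 held GGAAA words 120 bases and 1 base before it. Btla held neither word. GGAAA occurs in 61.3% and TGANTCA in 7.81% of the 32851 windows of this length, so the first is common by its shortness. The words GTAAACA (forkhead factors, 3.65% of windows) and TTCNNNGAA (STAT factors, 8.3%) were absent from all 6 windows, Pdcd1 and Tigit included. The searched words do not overlap each other in these windows, and a match is a description of letters only.

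Of the 9 genes, 6 rose and 1 fell in WT muscle Tregs relative to WT spleen Tregs, and 5 rose and 1 fell in Tg muscle Tregs relative to Tregs of the injured Tg spleen. Ctla4, Icos, Cd28, Cd274 and Havcr2 rose in both comparisons, Tigit rose in the WT comparison, and Btla fell in both. Pdcd1 and Lag3 passed in neither. Among all 13188 genes tested, 9.38% were called higher and 6.87% lower in the WT comparison, and 4.83% and 2.55% in the Tg comparison. The median log2 fold change of the 9 genes was 1.01 in WT and 0.65 in Tg, beside medians of -0.04 over all genes in both. Because the set was chosen with earlier results known, this contrast with all genes is a description only. Calls are from edgeR's quasi-likelihood test at a Benjamini-Hochberg adjusted p under 0.05. Levels below are CPM (read counts scaled to a common library size) after TMM scaling, which aligns libraries on the bulk of their genes, and differences are log2 fold changes with a standard error. In sorted bulk samples, fewer cells that express a gene and less RNA per cell cannot be told apart. Scaling mattered for the balance of calls over all genes: 57.7% of WT and 65.5% of Tg calls were higher in muscle with TMM scaling, and 37.7% and 38.9% with library totals only, which moved the median of all genes by -0.19 and -0.20. Cd28 was the only one of the 9 whose calls were lost with library totals, and with them the sign of all 9 was unchanged in these 2 comparisons.

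**Figure D1:**
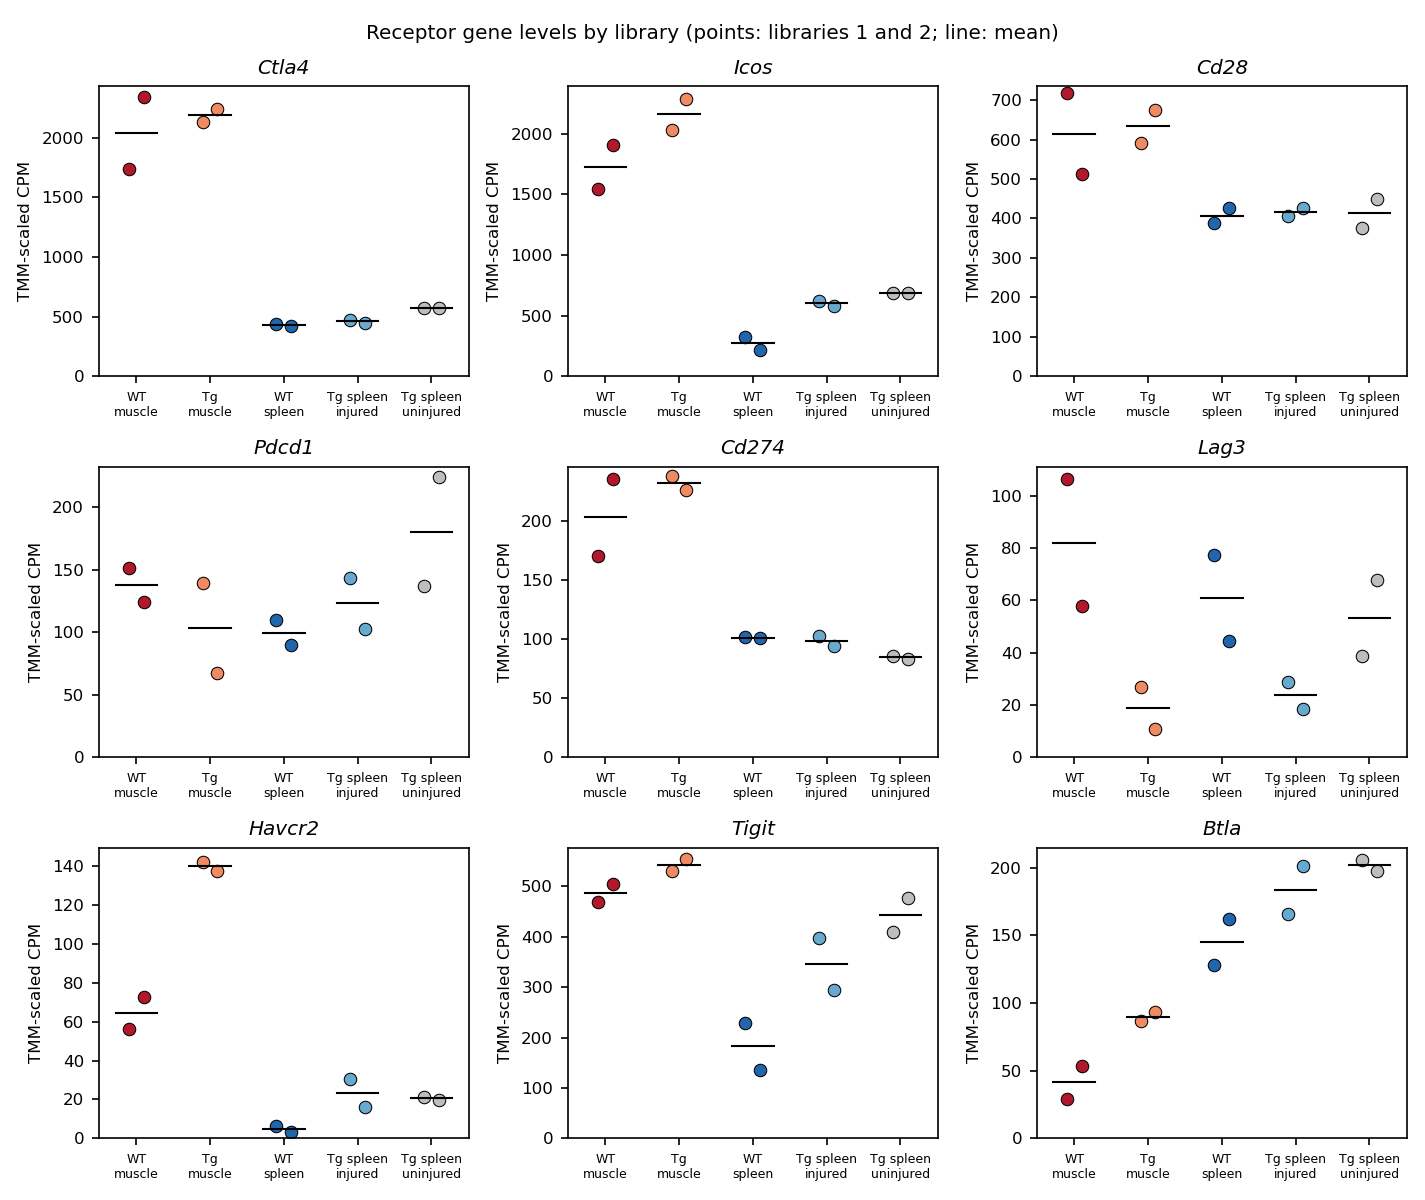
Levels of the 9 receptor genes in each of 10 Treg libraries. Each panel gives TMM-scaled CPM on a linear axis from 0, by group; points are libraries 1 and 2 and lines are their mean. For Ctla4, Icos, Cd28, Cd274 and Havcr2 every muscle library sits above every spleen library, and for Btla every muscle library sits below.

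Cd28 itself moved least among the genes that passed. Its level was 719 and 512 CPM in the WT muscle libraries and 592 and 676 CPM in Tg muscle. The spleen libraries lay between 376 and 451 CPM, with 389 and 425 in WT, 406 and 426 in injured Tg and 376 and 451 in uninjured Tg spleen. All 4 muscle libraries were above all 6 spleen libraries, and the WT muscle pair was the widest. The difference was 0.59 ± 0.16 in WT (1.51-fold, adjusted p = 0.0212) and 0.61 ± 0.16 in Tg (1.52-fold, adjusted p = 0.0308). With library totals the differences were 0.41 (adjusted p = 0.117) in WT and 0.41 (adjusted p = 0.163) in Tg. The WT call was also lost without WT muscle replicate 1 (0.34, adjusted p = 0.136), WT spleen replicate 1 (0.54, adjusted p = 0.108) or WT spleen replicate 2 (0.67, adjusted p = 0.0699). In a fit of the 2 compared groups alone it was 0.60 with an adjusted p = 0.104. The Tg call was lost on leaving out any 1 of its 4 libraries, with an adjusted p = 0.0567 without Tg muscle replicate 1, 0.194 without Tg muscle replicate 2, 0.188 without injured Tg spleen replicate 1 and 0.144 without injured Tg spleen replicate 2.

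Icos, the other costimulatory receptor, was among the most changed. It reached 1545 and 1903 CPM in WT muscle and 2034 and 2290 CPM in Tg muscle. In spleen it was 325 and 219 CPM in WT, 620 and 582 CPM in injured Tg and 686 and 685 CPM in uninjured Tg mice. The 5 groups did not overlap, and WT spleen was lowest. Icos rose by 2.67 ± 0.18 in the WT tissue comparison (6.37-fold, adjusted p = 2.05e-07) and by 1.85 ± 0.17 in the Tg comparison (3.60-fold, adjusted p = 6.63e-06).

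Ctla4, the inhibitory competitor of CD28, was between 4 and 5 times as high in muscle as in spleen of injured mice in both genotypes. The values were 1737 and 2336 CPM in WT muscle and 2134 and 2238 CPM in Tg muscle. They were 436 and 423 CPM in WT spleen, 470 and 450 CPM in injured Tg spleen and 569 and 575 CPM in uninjured Tg spleen. The lowest muscle library was above the highest spleen library, while muscle libraries of the 2 genotypes overlapped. Ctla4 rose by 2.25 ± 0.14 in WT (4.74-fold, adjusted p = 1.86e-07) and by 2.25 ± 0.14 in Tg (4.75-fold, adjusted p = 1.66e-07). Fos, an early-response gene that cell isolation from solid tissue is known to induce, moved with this difference: it rose by 4.20 ± 0.18 in WT and 4.76 ± 0.18 in Tg. Dusp1, a phosphatase gene of the same early response, rose by 3.58 ± 0.27 and 3.57 ± 0.26. These genes were picked with earlier results known, and their part in the receptor differences was not tested.

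**Figure D2:**
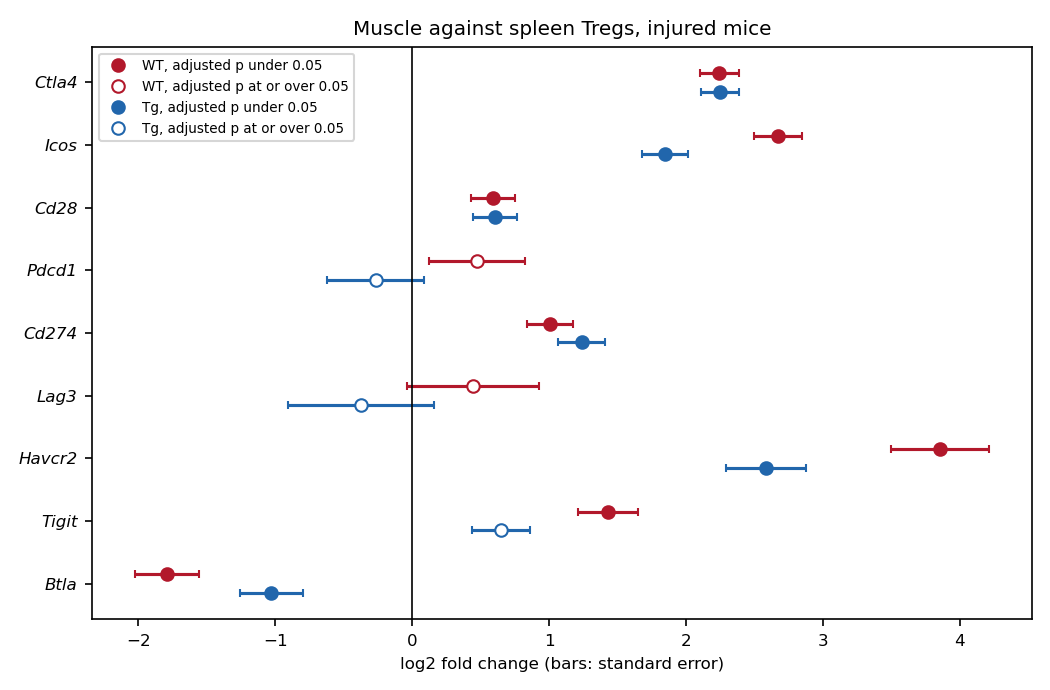
Muscle against spleen differences of the 9 genes in WT (red) and Tg (blue) Tregs. The horizontal axis is the log2 fold change, points are estimates, bars are the standard error, and filled points have an adjusted p under 0.05. Havcr2 lies furthest to the right at 3.86 in WT and 2.59 in Tg, and Btla alone has filled points to the left of 0.

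Havcr2, which encodes TIM-3, showed the largest fold change of the 9, from a low level in spleen. WT muscle libraries had 56.0 and 72.6 CPM and Tg muscle libraries 142 and 137 CPM. WT spleen had 6.25 and 3.38 CPM, injured Tg spleen 30.4 and 16.2 CPM and uninjured Tg spleen 21.5 and 19.8 CPM. The smallest count of any member in any Treg library, 13 reads, was Havcr2 in WT spleen, above the 3 counts that a count of 0 allows. The rise was 3.86 ± 0.36 in WT (14.5-fold, adjusted p = 5.37e-06) and 2.59 ± 0.29 in Tg (6.01-fold, adjusted p = 4.33e-05). Myeloid cells also express Havcr2 and Cd274. The summed level of 10 macrophage, monocyte and dendritic cell markers was 4.97 to 20.9 CPM in muscle libraries and 43.9 to 105 CPM in spleen libraries. Markers at 0 in both libraries of a group were Adgre1, Flt3 and Cd14 in WT muscle, C1qa and Itgax in Tg muscle, Itgax and Flt3 in WT spleen, and Fcgr1 in each Tg spleen group. The part of myeloid RNA in the Havcr2 and Cd274 levels was not tested.

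Cd274, the PD-1 ligand gene, was at 171 and 235 CPM in WT muscle and 238 and 226 CPM in Tg muscle. All 6 spleen libraries were between 83.1 and 102 CPM. Muscle and spleen did not overlap, and the 2 genotypes overlapped within muscle. The gene rose by 1.01 ± 0.17 in WT (2.01-fold, adjusted p = 0.000954) and 1.24 ± 0.17 in Tg (2.36-fold, adjusted p = 0.000256).

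Tigit, which binds CD155, was lowest in WT spleen, and its Tg spleen libraries approached the muscle level. It was at 470 and 505 CPM in WT muscle and 531 and 555 CPM in Tg muscle. WT spleen had 230 and 135 CPM, injured Tg spleen 397 and 295 CPM and uninjured Tg spleen 410 and 478 CPM. Uninjured Tg spleen thus overlapped WT muscle. Tigit rose by 1.43 ± 0.22 in WT (2.70-fold, adjusted p = 0.000889). In Tg the difference was 0.65 ± 0.21 (1.57-fold, adjusted p = 0.094), which did not pass. It passed there with DESeq2 (adjusted p = 0.0302), with limma-voom (0.0437), without the low-count filter (0.00101) and in a fit of the 2 compared groups alone (0.0136), at differences of 0.64 to 0.67. Over all genes in Tg, edgeR called 637 higher and 336 lower, and 808 and 495 of 33780 without the low-count filter. DESeq2 called 745 higher and 406 lower, and limma-voom 649 and 251.

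Btla, the receptor for the TNF receptor family member HVEM, ran in the opposite direction. It was at 29.4 and 53.7 CPM in WT muscle and 86.8 and 93.2 CPM in Tg muscle. WT spleen had 128 and 162 CPM, injured Tg spleen 166 and 201 CPM and uninjured Tg spleen 206 and 198 CPM. No muscle library reached the lowest spleen library. Btla fell by 1.79 ± 0.24 on the log2 scale in WT (3.46-fold lower, adjusted p = 0.000146) and by 1.03 ± 0.23 in Tg (2.04-fold lower, adjusted p = 0.0126). The Tg call was lost without Tg muscle replicate 1 (-0.98, adjusted p = 0.0959), Tg muscle replicate 2 (-1.08, adjusted p = 0.0656) or injured Tg spleen replicate 2 (-0.88, adjusted p = 0.137). B cells also express Btla. Summed over 8 B cell markers, the level was 30.3 and 37.0 CPM in WT muscle and 15.7 and 21.6 CPM in Tg muscle, and 37.4 to 114 CPM in the 6 spleen libraries. Of the 6 markers tested, Ms4a1 fell in the WT comparison and Cd79b in the Tg comparison. Ms4a1 and Pax5 were at 0 in both WT muscle libraries, and Cr2 and Fcer2a in both Tg muscle libraries. The part of B cell RNA in the Btla difference was not tested.

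Pdcd1 and Lag3 did not pass between tissues in either genotype. Pdcd1, encoding PD-1, ranged from 67.2 CPM in a Tg muscle library to 224 CPM in an uninjured Tg spleen library. Its WT muscle libraries were at 151 and 125 CPM beside 110 and 89.7 CPM in WT spleen, a difference of 0.47 ± 0.35 (adjusted p = 0.42). Tg muscle had 139 and 67.2 CPM beside 143 and 103 CPM in injured Tg spleen, a difference of -0.27 ± 0.35 (adjusted p = 0.746). Neighbouring groups in the order of Pdcd1 means overlapped at every step. Lag3, whose product binds MHC class II, was at 106 and 57.9 CPM in WT muscle and 77.4 and 44.5 CPM in WT spleen (0.44 ± 0.48, adjusted p = 0.596). Tg muscle had 26.9 and 10.8 CPM and injured Tg spleen 28.8 and 18.6 CPM (-0.37 ± 0.53, adjusted p = 0.772). Uninjured Tg spleen, at 38.6 and 67.7 CPM, overlapped WT spleen.

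Whether the tissue difference had the same size in both genotypes was tested as an interaction, and 0 of the 9 genes passed in edgeR (0.136% of all genes did). DESeq2 and limma-voom also gave 0. At an unadjusted p under 0.05 there were 4, namely Icos, Havcr2, Tigit and Btla, beside 1046 of all 13188 genes. Each had a tissue difference nearer 0 in Tg than in WT, by 0.82 ± 0.23 for Icos (adjusted p = 0.288), 1.27 ± 0.46 for Havcr2 (adjusted p = 0.476), 0.78 ± 0.30 for Tigit (adjusted p = 0.541) and 0.76 ± 0.32 for Btla (adjusted p = 0.578). In edgeR without the low-count filter, Icos (adjusted p = 0.00247) and Tigit (adjusted p = 0.0358) passed. That fit called 37 genes higher and 103 lower of 33780. The Icos interaction was -0.98 without WT muscle replicate 1 and -1.14 without WT spleen replicate 1. Ctla4 had an interaction of 0.00 ± 0.19 and Cd28 of 0.01 ± 0.23, and the signs of both changed under several alternatives.

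The genotypes were then compared within each tissue. These comparisons use the same libraries as the tissue comparisons, so their values are not independent of those above. In muscle 0 of the 9 genes passed in edgeR (0.318% of all genes did), with 3 in DESeq2 and 1 in limma-voom, and 3 had an unadjusted p under 0.05, beside 1152 of all 13188 genes. Over all genes, DESeq2 called 53 higher and 50 lower, and limma-voom 28 higher and 18 lower. EdgeR called 16 higher and 26 lower, and 103 and 92 of 33780 genes without the low-count filter. The 3 receptor genes were Havcr2, higher in Tg muscle by 1.12 ± 0.27 (adjusted p = 0.131), Btla, higher by 1.10 ± 0.24 (adjusted p = 0.0846), and Lag3, lower by 2.15 ± 0.52, or 4.45-fold (adjusted p = 0.214). For each of these genes the Tg and WT muscle libraries did not overlap. DESeq2 called all 3 (adjusted p = 0.0405, 0.00334 and 0.000357 in that order), as did edgeR without the low-count filter. Limma-voom called Havcr2 (adjusted p = 0.0302). Btla also passed with a replicate block (1.13, adjusted p = 0.0305) and without WT muscle replicate 2 (1.61, adjusted p = 0.000537). The other 6 genes differed by 0.43 or less in either direction, with Ctla4 at 0.10 ± 0.14 (adjusted p = 0.896) and Icos at 0.33 ± 0.16 (adjusted p = 0.604).

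**Figure D3:**
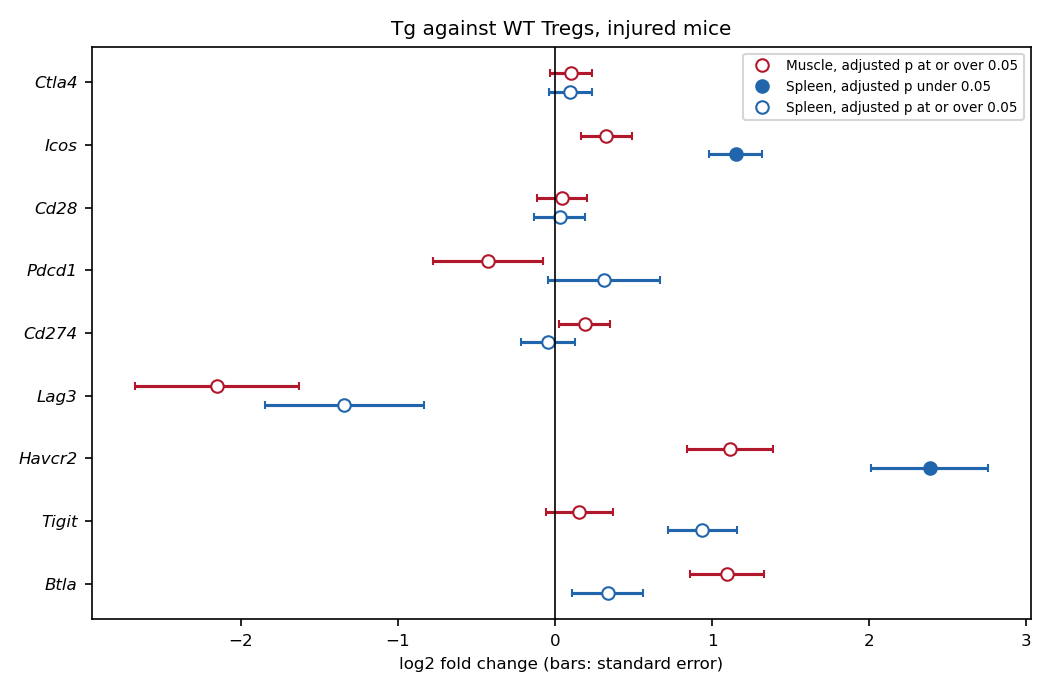
Tg against WT differences of the 9 genes in muscle Tregs (red) and in spleen Tregs of injured mice (blue). The horizontal axis is the log2 fold change, bars are the standard error, and filled points have an adjusted p under 0.05. Only Icos at 1.15 and Havcr2 at 2.39, both in spleen, are filled, and Lag3 lies furthest to the left at -2.15 in muscle and -1.34 in spleen.

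Spleen Tregs of injured Tg mice had 2 of the 9 genes higher, and 0 lower, relative to WT spleen. The share of all genes called higher was 0.887%. Over all genes edgeR called 117 higher and 55 lower, and 248 and 124 of 33780 without the low-count filter. DESeq2 called 201 higher and 103 lower over all genes, and limma-voom 78 and 65. Icos rose by 1.15 ± 0.17 (2.22-fold, adjusted p = 0.0024) and Havcr2 by 2.39 ± 0.37 (5.23-fold, adjusted p = 0.00367). The Havcr2 call was lost with limma-voom (2.39, adjusted p = 0.0778) and without WT spleen replicate 2 (1.90, adjusted p = 0.131). Tigit was higher by 0.94 ± 0.22 (adjusted p = 0.0631), and passed with DESeq2 (adjusted p = 0.00149), with limma-voom (0.0291), without the low-count filter (2.31e-07) and without WT spleen replicate 1 (1.36, adjusted p = 0.00318). Lag3 was lower by 1.34 ± 0.51 (adjusted p = 0.355), and passed without the low-count filter (adjusted p = 0.000196) and in a fit of the 2 compared groups alone (0.0226). Ctla4 (0.10 ± 0.14, adjusted p = 0.902), Cd28 (0.03 ± 0.16, adjusted p = 0.984) and Cd274 (-0.04 ± 0.17, adjusted p = 0.974) had estimates close to 0.

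Injured and uninjured Tg mice gave spleen Tregs in which 0 of the 9 genes passed, as did 0% of all genes in edgeR. DESeq2 and limma-voom also called 0 of the 9, and 2 had an unadjusted p under 0.05, beside 236 of all genes. These were Ctla4, at 470 and 450 CPM after injury and 569 and 575 CPM without it (-0.32 ± 0.14, adjusted p = 1), and Lag3, at 28.8 and 18.6 CPM beside 38.6 and 67.7 CPM (-1.17 ± 0.50, adjusted p = 1). Neither pair of groups overlapped.

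Because CD28 and CTLA4 compete for the same ligands, their read counts were also compared within each library, where library scaling cancels. The ratios use the same libraries as the tissue comparisons, so their values are not independent of the differences above. Ctla4 and Icos had risen more than Cd28 in both genotypes, so higher ratios to Cd28 follow from those differences. The permutation p-values of the ratios to Cd28 are therefore no separate evidence. There were 2.42 and 4.56 Ctla4 reads per Cd28 read in WT muscle and 3.60 and 3.31 in Tg muscle. Spleen libraries of injured mice had ratios of 1.12 and 0.995 in WT and 1.16 and 1.06 in Tg, and the uninjured Tg spleen had 1.51 and 1.28. All 4 muscle libraries exceeded all 6 spleen libraries. The mean log2 ratio was 1.65 higher in muscle than in the 4 spleen libraries of injured mice (two-sided exact permutation test, p = 0.0286, the smallest that 4 against 4 can give, adjusted p = 0.0429 over 3 ratios). The difference was 1.65 within WT and 1.64 within Tg. For Icos to Cd28 it was 1.67 (exact permutation p = 0.0286, adjusted p = 0.0429), with 2.11 within WT and 1.24 within Tg. The ratio was 0.836 and 0.515 in WT spleen and 1.53 and 1.37 in injured Tg spleen. Tigit and Cd226 encode an inhibitory and an activating receptor for CD155. Their ratio was 6.65 to 8.92 in muscle and 1.82 to 7.79 in spleen of injured mice, which overlapped, and the log2 difference of 0.99 had an exact permutation p = 0.114. It was 1.49 within WT and 0.49 within Tg. The tests of all 3 ratios permuted WT and Tg libraries together. Permuting within each genotype allows fewer splits, and so a larger smallest p, and was not run.

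**Figure D4:**
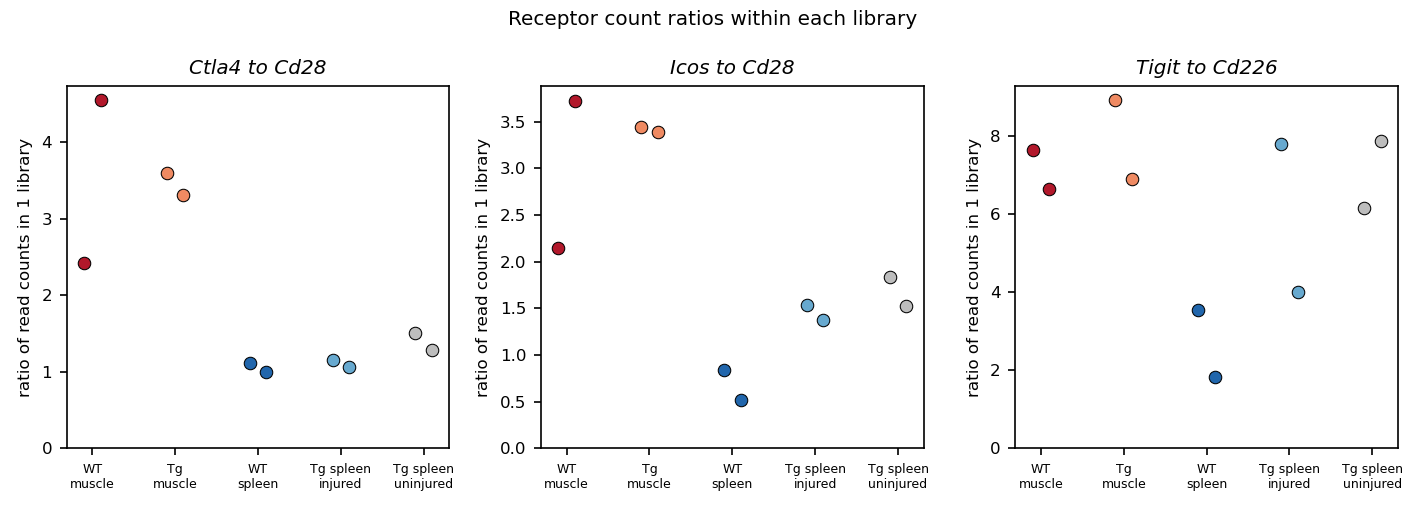
Read count ratios of receptor pairs within each Treg library. The vertical axes are the linear ratio of read counts in 1 library, from 0, and points are libraries 1 and 2 of each group. Muscle ratios of Ctla4 to Cd28 sit between 2.42 and 4.56 above all spleen values, whereas the Tigit to Cd226 ratios of muscle and Tg spleen overlap.

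To compare genes with one another, CPM were divided by exon length in kb. On this scale Ctla4 led in all 4 muscle libraries, with 36.7% to 41.9% of the summed level of the 9 genes. Ctla4 and Icos together made up 58.9% and 65.2% in WT muscle and 62.6% and 64.5% in Tg muscle. In the 6 spleen libraries they made up 35.0% to 40.5%. Tigit led in 5 of those 6, with Ctla4 ahead in WT spleen replicate 2. The summed level was 2029 to 2523 CPM per kb in muscle, 606 and 757 in WT spleen and 907 to 1277 in Tg spleen. Tigit has only 919 annotated exon bases in GENCODE M21, and its length-scaled rank depends on that annotation. Btla made up 0.426% to 1.09% of the set in muscle and 4.55% to 7.89% in spleen. These shares are given as a description, with no test.

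**Figure D5:**
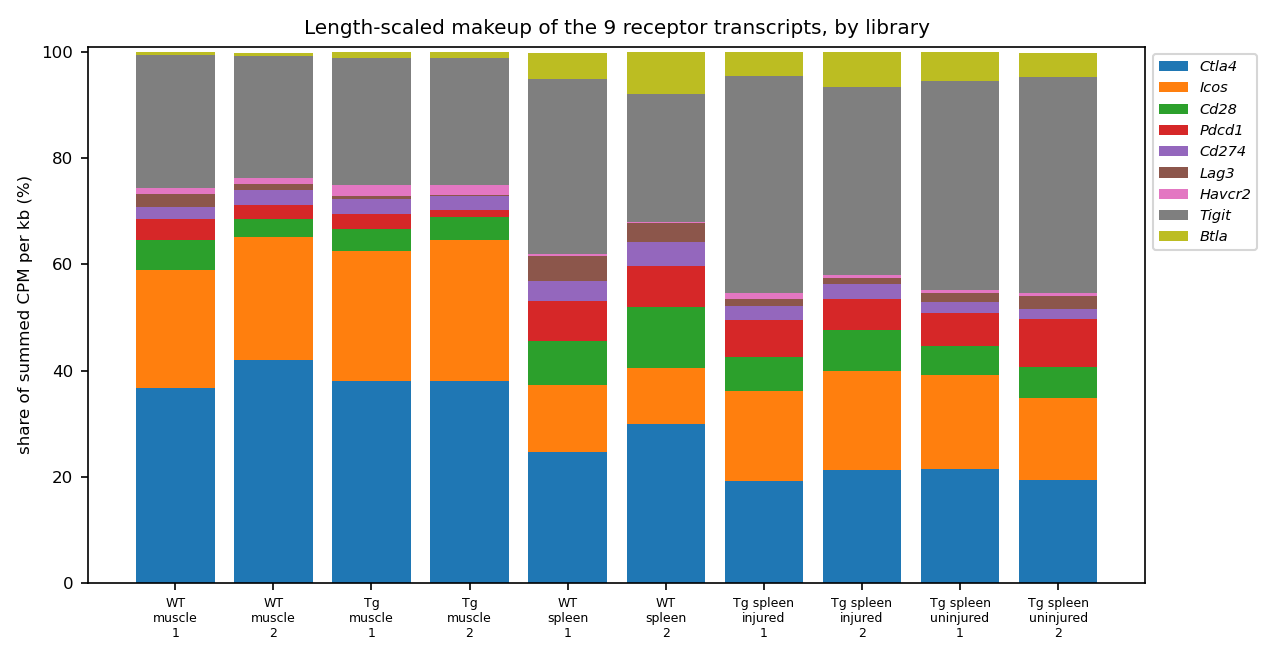
Makeup of the 9 receptor transcripts in each Treg library after scaling by exon length. Bars start at 0 and stack each gene's share of the summed CPM per kb in percent, 1 bar per library. Ctla4 (blue) and Icos (orange) fill 58.9% to 65.2% of the muscle bars and 35.0% to 40.5% of the spleen bars.

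The pathway around these receptors was followed in 5 lists of 60 genes, of which 55 were tested. In the WT tissue comparison 18 rose and 6 fell, and in the Tg comparison 11 rose and 5 fell. These counts, and those of each list, stand beside 9.38% higher and 6.87% lower over all genes in WT and 4.83% and 2.55% in Tg, and in lists this small a count of 0 to 2 is no result about the list. With library totals only, 11 rose and 7 fell in the WT comparison, 6 rose and 7 fell in the Tg comparison, and no called gene changed sign. Among 12 ligand genes, 8 of them tested, 2 rose in WT and 0 in Tg. Lgals9, encoding the TIM-3 ligand galectin-9, was at 569 ± 176 CPM in WT muscle and 308 ± 57.9 CPM in WT spleen (0.89 ± 0.19, adjusted p = 0.00679). Hmgb1 differed by 0.49 ± 0.15 (adjusted p = 0.0416), and its call was lost with library totals, with DESeq2 and without the low-count filter. Tnfrsf14, encoding HVEM (-0.44 ± 0.23, adjusted p = 0.217), and Cd86 (0.46 ± 0.48, adjusted p = 0.578) did not pass.

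Partner and related receptors moved in both directions, with 5 higher and 3 lower of 12 in WT and 1 higher and 3 lower in Tg. Cd160, encoding another HVEM-binding receptor, had the largest negative change (-3.79 ± 0.84, adjusted p = 0.00672), from 12.0 ± 2.07 CPM in WT spleen to 0.736 ± 1.04 CPM in WT muscle. In the WT muscle libraries 3 counts correspond to 0.678 and 0.368 CPM, so the size of this change is uncertain. In Tg the Cd160 difference was -4.22 ± 0.99 (adjusted p = 0.0167), to 0.497 ± 0.355 CPM in muscle, a call lost with limma-voom. Cd96, encoding a CD155-binding receptor, fell by 2.60 ± 0.22 in WT and 1.55 ± 0.22 in Tg on the log2 scale. Klrg1, a marker of differentiated effector cells, rose by 3.13 ± 0.41 in WT (adjusted p = 0.00281), and Pvrig, encoding an inhibitory receptor for nectin-2, by 2.96 ± 0.34 (adjusted p = 3.41e-05). In the Tg tissue comparison neither passed, with Klrg1 at 1.14 ± 0.37 (adjusted p = 0.136) and Pvrig at 0.89 ± 0.29 (adjusted p = 0.0836). The same genes were the only 2 of the 55 that passed between genotypes in spleen, where Klrg1 was higher in Tg by 2.72 ± 0.41 (adjusted p = 0.0301) and Pvrig by 2.02 ± 0.34 (adjusted p = 0.00662). Slamf6 (0.02 ± 0.14, adjusted p = 0.954) and Cd226 (-0.02 ± 0.23, adjusted p = 0.972) did not pass.

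Of 14 receptor signalling genes, 3 rose and 2 fell in WT and 4 rose and 1 fell in Tg. Ptpn6, encoding the phosphatase SHP-1 that BTLA recruits, fell by 0.90 ± 0.17 in WT on the log2 scale (adjusted p = 0.0019). In Tg it did not pass (-0.376 ± 0.165, adjusted p = 0.208). Prkcq, a kinase downstream of CD28, fell by 0.85 ± 0.16 in WT (adjusted p = 0.00254) and 0.70 ± 0.16 in Tg (adjusted p = 0.0165). Grb2, an adaptor that binds CD28, rose by 0.88 ± 0.24 (adjusted p = 0.0217), and Ppp2ca, a catalytic subunit of the phosphatase PP2A, by 0.79 ± 0.22 (adjusted p = 0.0267), both calls being lost with library totals. In Tg, Grb2 rose by 0.85 ± 0.23 (adjusted p = 0.037), a call also lost with library totals. Ppp2ca did not pass in Tg (0.36 ± 0.22, adjusted p = 0.401). Pik3cd, a phosphoinositide kinase subunit, did not pass in WT (-0.22 ± 0.14, adjusted p = 0.319). Of 8 CTLA4 trafficking genes, 2 rose in WT and 1 in Tg. Arf1 rose by 0.73 ± 0.12 (adjusted p = 0.00083) and Rab11a by 0.67 ± 0.16 (adjusted p = 0.01), the second call being lost with library totals. In Tg, Arf1 rose by 0.49 ± 0.12 (adjusted p = 0.0204), a call lost with library totals. Rab11a did not pass in Tg (0.48 ± 0.16, adjusted p = 0.0827). The clathrin adaptor genes Ap1m1 (-0.08 ± 0.13, adjusted p = 0.715) and Ap2m1 (0.34 ± 0.15, adjusted p = 0.154) did not pass in WT.

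Regulators of receptor genes were the list with the most rises in Tg, 5 of 13 tested with 1 lower, and 6 rose and 1 fell in WT. Prdm1, encoding Blimp-1, rose by 2.56 ± 0.30 in WT and 1.72 ± 0.28 in Tg. Irf4 rose by 2.31 ± 0.19 and 1.99 ± 0.19, and Maf by 1.65 ± 0.17 and 0.76 ± 0.16. Tcf7, encoding the factor TCF-1 of less differentiated T cells, fell by 3.20 ± 0.38 in WT and 5.41 ± 0.49 in Tg on the log2 scale, from 252 ± 13.0 to 27.6 ± 8.21 CPM and from 165 ± 2.47 to 4.35 ± 4.42 CPM (SD, n = 2). Nfatc1 (-0.17 ± 0.14, adjusted p = 0.468) and Ikzf2 (-0.32 ± 0.17, adjusted p = 0.223) did not pass. Between genotypes in muscle, between injured and uninjured spleen and in the interaction, 0 of the 55 genes passed in edgeR.

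Genes whose levels followed each receptor most closely over the 10 Treg libraries were ranked by Pearson correlation of log2 CPM among 7355 genes, as a description over libraries that share 5 groups. Ctla4 was closest to Cd69, an activation and tissue retention marker, and Dusp1 (r = 0.992 each), with Tgif1 at 0.991. Icos was closest to the protease gene Gzmb (0.997), then Prkar1a (0.99) and Rora (0.988). Havcr2 was closest to the TNF receptor gene Tnfrsf1b (0.992), Mif4gd (0.989) and the IL-10 receptor gene Il10ra (0.988). Cd28 was closest to the phosphatase gene Ptpn22 (0.991), Tsc22d2 (0.976) and Slk (0.96). Cd274 was closest to Slc25a3 (0.988), Fth1 (0.986) and Csrnp1 (0.982), and Tigit to the galectin gene Lgals1 (0.973), Nucb1 (0.97) and Nlrx1 (0.967). Btla was closest to Cnpy2 (0.956), Ptpn6 (0.952) and Mtif3 (0.947). Pdcd1 and Lag3 had no gene above 0.9: Atraid (0.882), Nup93 (0.857) and Zfp54 (0.849) led for Pdcd1, and Hmgcs1 (0.897), Abcb8 (0.859) and Zfp444 (0.859) for Lag3. Among the 9 genes themselves, Icos and Havcr2 had the highest correlation (0.981), followed by Ctla4 and Cd274 (0.954), and Cd28 and Btla the lowest (-0.807).

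In whole muscle on day 8 the 9 genes were near the detection limit, with 0 to 45 counts per library out of totals of 5095999 to 7075420. Pdcd1 was at 0 in all 6 libraries, where a count of 0 allows up to 3 counts, or 0.43 to 0.6 CPM. Only Cd28 and Cd274 passed the low-count filter, and 0 of these 2 were called in edgeR or DESeq2 (0 at an unadjusted p under 0.05, with 0.0323% of all genes called). Cd28 had 8 to 45 counts in WT and 15 to 32 in Tg libraries (-0.06 ± 0.56, adjusted p = 0.998), and Cd274 4 to 26 and 13 to 21 (-0.15 ± 0.67, adjusted p = 0.998). Lag3, which was not tested, had 0, 8 and 3 counts in the WT libraries and 4, 14 and 26 counts in the Tg libraries.

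Treg libraries held 1986700 to 9116800 counts, so 3 counts correspond to 0.368 to 1.44 CPM. Markers of the labelled cell type, Foxp3, Il2ra, Ikzf2, Cd3e and Cd4, summed to 3620 to 5620 CPM and none was at 0. Foxp3 rose with the tissue, by 0.68 ± 0.13 in WT and 0.90 ± 0.13 in Tg. Il2ra, encoding the high-affinity interleukin-2 receptor chain, rose with the tissue by 1.52 ± 0.17 in Tg (edgeR adjusted p = 3.59e-05) and was at 0.02 ± 0.16 in WT (adjusted p = 0.947). It was lower in Tg than in WT injured spleen, with a log2 difference of -0.91 ± 0.17 (adjusted p = 0.0114), and its tissue effect was larger in Tg than in WT (adjusted p = 0.0245 for the difference of the tissue effects). Ikzf2, encoding the transcription factor Helios, passed in neither tissue comparison, at -0.32 ± 0.17 in WT and -0.22 ± 0.17 in Tg. The part of these markers in the receptor differences was not tested. CD8 T cell markers summed to 11.5 to 28.8 CPM, NK cell markers to at most 3.85 CPM and muscle fibre markers to 2.47 to 9.92 CPM. Most of the CD8 sum was Cd8b1, with group means of 11.7 to 24.5 CPM, beside 0 to 3.49 CPM for Cd8a. Endothelial and fibroblast markers summed to 170 to 270 CPM, with Cdh5 and Pdgfra at 0 in all 4 muscle libraries. Most of this sum was Pecam1, with group means of 177 to 256 CPM, beside 0.739 to 6.41 CPM for Col1a1.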

How the data were processed

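The deposited table holds raw read counts per gene for 16 libraries, made by the authors with STAR 2.5.4 on mm10 and featureCounts, per the submitters' processing notes. For featureCounts, the sources used here give no version, annotation or strand setting. Libraries were made from oligo(dT)-primed, amplified RNA by transposon fragmentation, per the labels' protocols, which does not mark strand. Reads carry no molecular identifiers, so floors cover counting error only.

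All 10 Treg libraries entered 1 edgeR 4.0.16 fit (R 4.3.3; filterByExpr by group, TMM, robust quasi-likelihood, 13188 genes, 5 residual degrees of freedom), and the 6 whole muscle libraries another (12377 genes, 4 residual degrees of freedom). P-values were Benjamini-Hochberg adjusted over all genes tested. The standard error is the log2 fold change divided by the root of the F statistic. Ratios used counts plus 0.5 in SciPy 1.17.1. Correlations used log2 CPM with a prior count of 2, among genes with a mean log2 CPM of at least 4. The fit was also run on counts simulated from its own means and dispersions and the library sizes, with planted changes. Such counts have the spread that the fit assumes, so the run does not show the error rate on these libraries. Within groups, counts differed beyond sampling error (5.47 to 28.9 in chi-square per degree of freedom), so no library was counted as a duplicate. The value of 28.9 was that of WT muscle, beside 9.02 in Tg muscle and 7.34, 6.06 and 5.47 in the spleen groups. WT muscle replicate 2 had the most counts (9116800), the fewest genes detected (17081) and the lowest TMM factor (0.8961) of the Treg libraries. The cause of this was not tested.

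The members and lists were chosen with earlier results of these data known. Pathway genes were named as up to 4 called genes with the largest change in the WT tissue comparison and up to 2 uncalled genes with the highest mean level per list, plus any that passed in another comparison. Some listed genes are not reported here, though counts include them. Likeness names the 3 genes with the highest correlation, leaving out unnamed genes, pseudogenes and receptor segments. Alternatives were relative log expression scaling, library totals, no low-count filter, DESeq2 1.42.0, a filter at 5 CPM, limma-voom (limma 3.58.1), a replicate block, removal of T cell receptor and immunoglobulin genes, the compared groups only, and leaving out each library. Sorted cell numbers disagree between the protocol and the design text and are not used.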

Additional observations from a re-analysis of the deposited data

How the results depend on the processing

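Over all alternatives, 687 values for single genes kept their direction and side of the threshold, 33 changed sign, 23 gained and 15 lost a call. For counts and ratios, 96 values stayed within 1.5 times or on their side, 10 moved further and 16 lost a call. The count of receptors called between Tg and WT muscle, 0, became 3 without the low-count filter, 3 with DESeq2, 1 with limma-voom, 1 with the replicate block, and 0 to 1 on leaving out single libraries. Between Tg and WT spleen, 2 became 4 without the filter and 1 to 3 on leaving out single libraries (1 without WT spleen replicate 2). For the interaction, 0 became 2 without the filter and 0 to 1 on leaving out single libraries. Over all genes, interaction calls went from 7 higher and 11 lower to 37 and 103 of 33780 without the filter. In the Tg tissue comparison 6 became 4 to 5 on leaving out single libraries. Leaving out 1 library, the log2 ratio difference ran from 1.505 to 1.81 for Ctla4 to Cd28 and from 1.37 to 1.89 for Icos to Cd28, where 3 against 4 libraries cannot pass the threshold, and from 0.64 to 1.34 for Tigit to Cd226.

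Sign changes were all in differences that had not passed. The Ctla4 interaction was -0.0256 without the filter, -0.0039 with limma-voom and -0.0056 with the compared groups only, and the Cd28 interaction -0.0023 with library totals and -0.0112 without the filter. In whole muscle with a replicate block Cd28 was 0.0546 and Cd274 0.057. Leaving out single libraries gave these ranges: interaction, Ctla4 -0.21 to 0.22 and Cd28 -0.22 to 0.26; Tg against WT muscle, Ctla4 -0.11 to 0.33, Cd28 -0.19 to 0.30, Cd274 -0.032 to 0.44 and Pdcd1 -1.04 to 0.0063; Tg against WT spleen, Cd28 -0.0318 to 0.10 and Cd274 -0.10 to 0.023. For injured against uninjured spleen they were -0.13 to 0.15 for Cd28 and -0.35 to 0.56 for Havcr2. For the tissue comparisons they were -0.0364 to 0.88 for Lag3 in WT, and -1.13 to 0.18 for Lag3 and -0.87 to 0.17 for Pdcd1 in Tg. For whole muscle they were -0.41 to 0.55 for Cd28 and -0.64 to 0.25 for Cd274. The causes were not tested.

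The replicate block left 7 and 6 receptors called in the WT and Tg tissue comparisons, 2 in the spleen genotype comparison, and 0 in the injury comparison and the interaction. Same-numbered libraries correlated at -0.068 to 0.19 in their deviations from group means over 10 pairs of groups (7652 genes), so the numbers were not taken as a pairing. Depth limits mainly Havcr2 and Lag3 in Tregs and all 9 genes in whole muscle.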

Other observations

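Within 200 kb of the 9 receptor genes lie 54 other protein-coding genes, of which 35 were tested. Of these, 4 rose and 3 fell in the WT tissue comparison, and 4 rose and 2 fell in the Tg comparison. Over all genes 9.38% rose and 6.87% fell in WT, and 4.83% and 2.55% in Tg, and nothing particular to these neighbours is read from their counts. Raph1, the tested gene nearest to Cd28 on its left at 150 kb, rose by 1.70 ± 0.31 in WT (adjusted p = 0.00177) and 1.10 ± 0.29 in Tg (adjusted p = 0.0315). Jak2, a cytokine receptor kinase gene 54.4 kb from Cd274, rose by 0.98 ± 0.19 (adjusted p = 0.00302) and 1.11 ± 0.19 (adjusted p = 0.00202). Plgrkt, 0.065 kb from Cd274, did not pass (-0.10, adjusted p = 0.752, and -0.26, adjusted p = 0.443), nor did Pdcd1lg2, the gene of the other PD-1 ligand, 22.8 kb on its other side (0.16 ± 0.31, adjusted p = 0.772, and 0.86 ± 0.30, adjusted p = 0.107). Cd200, encoding an inhibitory ligand and lying 124 kb from Btla, fell with it, by 1.69 ± 0.26 in WT (adjusted p = 0.000518) and 1.04 ± 0.26 in Tg (adjusted p = 0.0231) on the log2 scale. Zbtb20, 6.26 kb from Tigit, fell by 1.45 ± 0.27 in WT (adjusted p = 0.00421), opposite in direction to Tigit. In Tg the Zbtb20 difference of -0.79 did not pass (adjusted p = 0.118). Tpi1, a glycolysis gene 90.1 kb from Lag3, rose by 1.83 ± 0.16 and 1.22 ± 0.16, while Lag3 and its neighbour Cd4 at 16.1 kb did not pass (Cd4 0.37, adjusted p = 0.0591, and 0.00, adjusted p = 0.994). These neighbours were named after their values were seen.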
